A study of Mus musculus with 9 samples.

Results

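Ovaries of mice given caulerpin were compared with ovaries of untreated mice, gene by gene and by gene family. Caulerpin is a natural indole alkaloid found in Caulerpa, a genus of green seaweeds. The comparison takes in 6 of the 9 RNA-seq libraries of the study, 3 of the CAU group (caulerpin) and 3 of the UT group (no treatment), and 19302 of the 19517 genes in the authors' deposited table have a value in it. The other 3 libraries, of the CTX group (cyclophosphamide, an alkylating chemotherapy drug), enter only where a value is set beside theirs. Every mouse was a female BALB/c nude, athymic and so without mature T cells, and bore a tumour grown from MDA-MB-231, an established line of human breast cancer cells. For the CAU group only caulerpin is named, and whether these mice also had cyclophosphamide is left unsaid in the labels. Libraries are numbered as replicate biosamples with no mouse named, and age, dose and time were not used here. P-values therefore measure the spread between these libraries, which may be technical in part.

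The authors' deposited table gives each gene its DESeq2 log2 fold change with raw and adjusted p-values, and has no value per library and no expression level. Values of single ovaries, sequencing depth and the overlap between groups were therefore not examined. The columns of this comparison were read as CAU over UT, which the table does not state. The opposite reading would turn every direction given here. The standard error (SE) of each log2 fold change is the one its own p-value implies, and intervals are 95% intervals from that SE. Without levels, the labelled tissue could not be checked against its markers.

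Secreted and membrane proteins are folded in the endoplasmic reticulum (ER), where chaperones such as BiP hold unfolded chains and disulfide isomerases join their cysteines. When unfolded protein builds up, the sensors IRE1, PERK and ATF6 start the unfolded protein response. Its ATF6 and XBP1 branches raise ER chaperones and degradation factors, and its PERK branch acts through ATF4 and CHOP. In the ovary, granulosa, theca and luteal cells and the oocyte all secrete hormones, matrix or zona proteins made in this compartment.

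Few single genes separated CAU from UT. With an adjusted p under 0.05, 10 of 19302 genes were called (0.0518% of all), of which 6 rose (0.0311%) and 4 fell (0.0207%), and 3 of the 10 differed at least 2-fold. At an unadjusted p under 0.05 there were 668 genes (3.46%), 231 with a positive log2 fold change (1.2%) and 437 with a negative one (2.26%). Chance alone gives 965.1 such genes (5%), so small p-values were scarcer than under a well calibrated test. At an unadjusted p under 0.001 the order was the other way, with 48 genes (17 positive, 31 negative) against 19.3 by chance.

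The signed z values had a robust spread of 0.711, where chance alone gives 1. The spread was closest to 1 for the most precisely measured genes and lowest for the least precise. It was 0.898 for the 750 genes with an implied SE up to 0.1 and 0.349 for the 2096 genes with one above 2. For the 10977 genes with an implied SE of at most 0.3 it was 0.836. The median implied SE was 0.24, and 3908 genes (20.2%) had one above 1, for which a 2-fold difference lies within the error. The median log2 fold change was -0.01 and 47.8% of genes were above 0. This share moved with the implied SE, from 56.0% at an SE of 0.1 to 0.2 down to 39.0%, 38.3% and 39.0% at 0.3 to 0.5, 0.5 to 1 and 1 to 2. A list of imprecise genes therefore has to be read against a background that is itself mostly below 0. A gene that misses the threshold here is not shown to be alike in both groups, and intervals are given for the main ones.

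**Figure D1:**
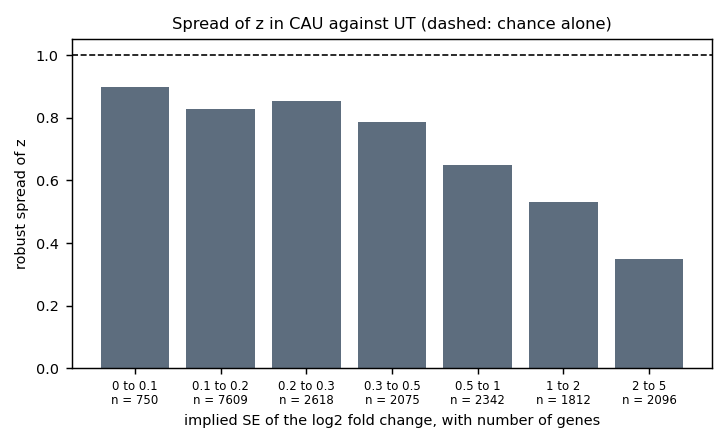
Robust spread of the signed z values of CAU against UT (vertical axis) for genes binned by the implied SE of their log2 fold change (horizontal axis, log2 units, with the number of genes in each bin). Every bar lies under the dashed line at 1, from 0.898 in the most precise bin down to 0.349 in the least precise.

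The 6 genes that rose were Creld2, P4ha2, Sdf2l1, Pdia4, Manf and Pdia6, and all 6 encode proteins that work in the ER lumen. The 4 genes that fell were Ubtd1, Cish, Nab2 and Kcnk2. The lists of gene families used below were written with these calls known, so the place of the called genes in a list is no evidence for it. Just outside the threshold lay Dusp4, a phosphatase that switches off MAP kinases, at -1.48 (SE 0.36, adjusted p = 0.0840) per the authors' deposited table. Of the 20 genes with the smallest p-values, several of those next in order had an adjusted p = 0.109 by the authors' deposited table. They included Cx3cr1 at -1.11, Nr4a3 at -1.76, Vwf at -0.82, Rasl10a (a small GTPase) at -0.47 and Myom2 (a muscle protein) at 1.32. Slc33a1, the acetyl-CoA transporter of the ER membrane, followed at 0.40 (SE 0.10, adjusted p = 0.129) per the authors' deposited table.

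**Figure D2:**
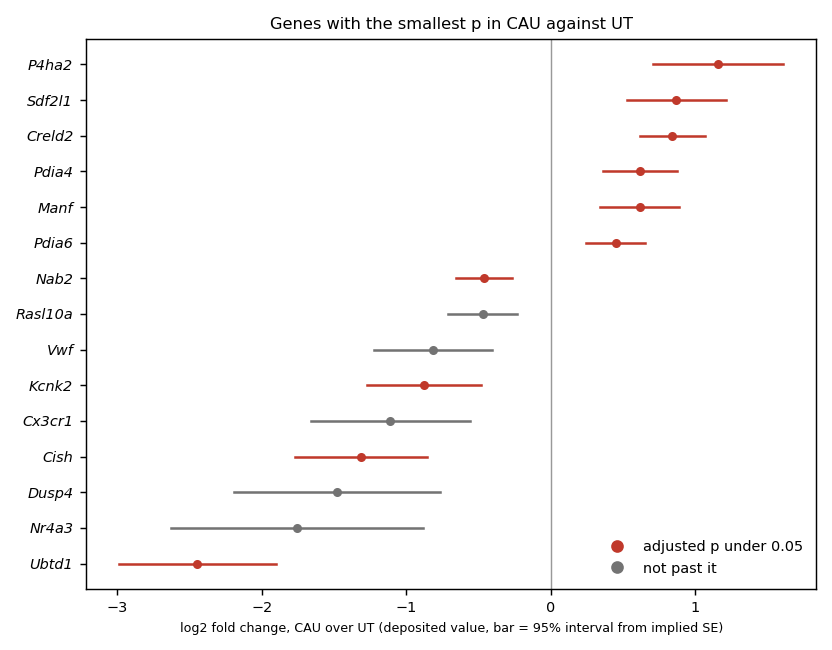
Log2 fold change of CAU over UT (horizontal axis) for the 15 genes with the smallest p-values, ordered by value, with 95% intervals from the implied SE as bars. The 10 genes past an adjusted p of 0.05 are red, from Ubtd1 at -2.45 to P4ha2 at 1.16, and the other 5, in grey, all lie below 0.

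Of the 60 lists examined, chaperones of the ER lumen had the most members with a positive value and an unadjusted p under 0.05. Lists and members were chosen with earlier results of these data known, so this rank is no evidence for the list. Of 20 chaperones and co-chaperones, 3 rose and none fell by the adjusted p, against 0.0311% and 0.0207% of all genes. Of the 20, 18 were above 0, and 12 had an unadjusted p under 0.05, all positive, against 1.2% of all genes. The 3 called genes are among the 12. Their median log2 fold change was 0.36, against -0.01 over all genes.

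Creld2, a cysteine-rich ER protein with EGF-like domains, rose 1.79-fold by the authors' deposited table (0.84 on the log2 scale, SE 0.11, adjusted p = 1.63e-09). Sdf2l1, a partner of the ER J-domain proteins, rose 1.83-fold per the authors' deposited table (0.87, SE 0.17, adjusted p = 0.00236). Manf, an ER protein that is released when ER calcium is drained, rose 1.53-fold by the authors' deposited table (0.61, SE 0.14, adjusted p = 0.0218). Each of these is a soluble resident of the ER lumen, and their intervals (0.62 to 1.06, 0.53 to 1.21 and 0.34 to 0.89) overlap one another.

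The classical chaperones had values of the same size or somewhat smaller, none of them past the threshold. Hspa5, which encodes BiP, was at 0.61 (interval 0.28 to 0.95, adjusted p = 0.216) per the authors' deposited table. Hyou1, its nucleotide exchange factor, was at 0.56 (0.17 to 0.94) and Hsp90b1, the ER form of HSP90, at 0.53 (0.19 to 0.88) by the authors' deposited table. The lectin chaperones that bind sugar-bearing chains were at 0.45 for Calr (0.16 to 0.74) and 0.37 for Canx (0.05 to 0.68) per the authors' deposited table. All 5 intervals lie above 0.

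Several J-domain co-chaperones of BiP had tighter intervals. Dnajb11 was at 0.43 (SE 0.13), Dnajc3 at 0.42 (SE 0.12) and Dnajb9 at 0.35 (SE 0.11) by the authors' deposited table. Another ER J-domain protein, Dnajc10, was at 0.13 (-0.06 to 0.32) by the authors' deposited table. Fkbp14, a prolyl isomerase, was at 0.35 (SE 0.16) per the authors' deposited table. The close relatives of the called genes were nearer 0. Creld1 was at 0.23 (-0.06 to 0.52), Sdf2 at 0.08 (-0.12 to 0.28) and Cdnf, the relative of Manf, at -0.08 (-1.03 to 0.87) by the authors' deposited table. Sil1, a nucleotide exchange factor of BiP, was at -0.10 (-0.33 to 0.13) and was the lowest of the list per the authors' deposited table.

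Among disulfide isomerases and ER oxidases, 2 of 21 rose, against 0.0311% of all genes, and none fell. Of the 21, 19 were above 0 (median 0.17), and 6 had an unadjusted p under 0.05, all positive, against 1.2% of all genes. Pdia4 rose 1.53-fold by the authors' deposited table (0.61, SE 0.13, adjusted p = 0.00726). Pdia6 rose 1.37-fold per the authors' deposited table (0.45, SE 0.10, adjusted p = 0.0278). Pdia3, which pairs with the lectin chaperones, was at 0.39 (SE 0.12), and P4hb, the founding disulfide isomerase and the beta subunit of collagen prolyl hydroxylase, at 0.17 (SE 0.08) by the authors' deposited table. The oxidases that recharge these enzymes differed in value, with Ero1b at 0.39 (0.04 to 0.73) and Ero1a at 0.06 (-0.15 to 0.28) per the authors' deposited table. Prdx4 was at -0.02 (-0.23 to 0.20) and Qsox1 at -0.09 (-0.31 to 0.14) by the authors' deposited table. The difference between members was not tested.

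**Figure D3:**
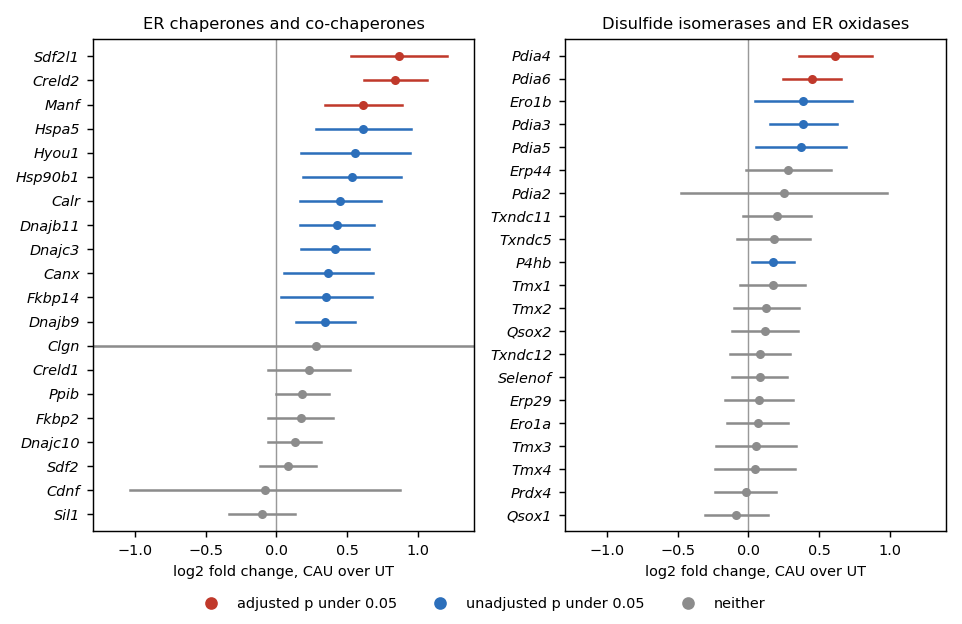
Log2 fold change of CAU over UT (horizontal axis) for each of 20 ER chaperones (left) and 21 disulfide isomerases and oxidases (right), with 95% intervals from the implied SE; the interval of Clgn (-2.18 to 2.74) runs past both edges. In the chaperone panel 12 of 20 genes and in the isomerase panel 6 of 21 have an unadjusted p under 0.05, all to the right of 0, and 5 of them, in red, pass the adjusted p.

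The other steps of the secretory route also had positive medians, and none of their members was called. All 25 genes of the translocon and signal peptidase were above 0 (median 0.17), with 2 at an unadjusted p under 0.05, Tram1 at 0.26 (SE 0.09) and Spcs2 at 0.26 (SE 0.10) per the authors' deposited table. Of 16 genes of the oligosaccharyltransferase and its glycan checks, 15 were above 0 and 4 had an unadjusted p under 0.05 (median 0.19). Rpn2, a subunit of that enzyme, was at 0.25 (SE 0.08) by the authors' deposited table. Of 26 genes of the COPII coat and ER export, 23 were above 0 and 5 had an unadjusted p under 0.05 (median 0.15). The coat subunits Sec24d and Sec23b were at 0.38 (SE 0.15) and 0.53 (SE 0.21) per the authors' deposited table.

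Genes of ER-associated degradation, which pulls misfolded proteins out to the proteasome, had 15 of 19 above 0 and 4 at an unadjusted p under 0.05 (median 0.15). Syvn1, the ubiquitin ligase of this pathway, was at 0.37 (SE 0.12) and Edem1, a mannosidase that marks its clients, at 0.32 (SE 0.12) by the authors' deposited table. Over the 6 lists of folding, degradation and export together, 115 of 127 genes were above 0 (median 0.18). Of these, 33 had an unadjusted p under 0.05 on the positive side and none on the negative side, against 1.2% and 2.26% of all genes. Members of a pathway can vary together between libraries, so such counts are not counts of independent results.

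No regulator of these genes was called. Of 17 sensors and transcription factors of the unfolded protein response, 11 were above 0 (median 0.06), and 3 had an unadjusted p under 0.05, 2 positive and 1 negative. Eif2ak3, the sensor PERK, was at 0.36 (0.06 to 0.66) and Xbp1 at 0.17 (-0.06 to 0.40) per the authors' deposited table. Ddit3, which encodes CHOP, was at -0.08 (-0.46 to 0.30), and Atf3 at -1.17 (-2.23 to -0.10) by the authors' deposited table. None of 21 ATF4 targets had an unadjusted p under 0.05 (9 above 0, median -0.03, range -0.97 to 0.36). The upper ends of the Ddit3 and Xbp1 intervals, 0.30 and 0.40, bound what the data leave room for in these genes. Splicing of Xbp1 is not measured by a gene-level table.

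Heat shock proteins of the cytosol, which fold proteins outside the ER, had 14 of 21 above 0 and a median of 0.13. Hspa8 was at 0.52 (SE 0.19) and Hsp90aa1 at 0.43 (SE 0.21) per the authors' deposited table, the 2 of the list with an unadjusted p under 0.05. Neither was called. None of 48 proteasome subunits had an unadjusted p under 0.05 (37 above 0, median 0.07), nor had any of 86 cytosolic ribosomal proteins (49 above 0, median 0.01) or 37 aminoacyl-tRNA synthetases (32 above 0, median 0.09). Granulosa cell genes, described below, had a median of 0.27, and their part in the values of the ER genes was not tested. Plasma cells are rich in ER. Of 9 B and plasma cell genes 7 were below 0 (median -0.27, median SE 0.80). The lowest was the plasma cell marker Jchain, the joining chain of antibodies, at -2.66 (SE 1.10) by the authors' deposited table. The part of plasma cells in the values of the ER genes was not tested either.

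The promoters of these genes were searched for the ER stress element, the sequence that ATF6 reads together with the factor NF-Y. Promoter windows of 300 bases, 250 before and 50 after the annotated start, came from RefSeq on GRCm38.p6, and an entry was found for 35 of the 41 chaperone and isomerase genes and for 5 of the 6 genes that rose. The element was searched on both strands as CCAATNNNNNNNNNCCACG, which allows no mismatch. It is shown in capitals below, all sequences being written 5′ to 3′ on the strand of the gene, and an element on the other strand reads CGTGG first. Shown are the 2 called genes that hold it and, as examples, 4 other genes of the ER lists. Positions count from the annotated start, with the last base before it as -1.

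The 250 bases before Creld2 lie at chr15:88819396-88819645 on the plus strand, and the element at -126 to -108 is on the opposite strand.
Creld2: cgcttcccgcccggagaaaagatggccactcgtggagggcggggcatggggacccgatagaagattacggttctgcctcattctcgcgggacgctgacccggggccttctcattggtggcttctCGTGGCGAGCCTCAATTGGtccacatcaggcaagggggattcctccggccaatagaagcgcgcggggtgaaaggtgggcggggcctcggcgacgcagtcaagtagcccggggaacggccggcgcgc
The 250 bases before Hspa5 lie at chr2:34771840-34772089 on the plus strand, with the element at -65 to -47.
Hspa5: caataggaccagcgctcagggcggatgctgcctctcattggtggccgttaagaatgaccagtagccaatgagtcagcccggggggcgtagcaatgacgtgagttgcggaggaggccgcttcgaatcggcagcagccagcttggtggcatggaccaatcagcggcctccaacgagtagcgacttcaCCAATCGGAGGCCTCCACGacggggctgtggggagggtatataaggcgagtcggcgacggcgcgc
Shorter stretches are shown around the elements of Pdia6 (chr12:17266471-17266529, plus strand, element at -98 to -80), Dnajc3 (chr14:118937807-118937865, plus strand, element at -105 to -87) and Syvn1 (chr19:6046512-6046570, plus strand, element at -44 to -26).
Pdia6: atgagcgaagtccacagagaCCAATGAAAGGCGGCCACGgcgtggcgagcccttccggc
Dnajc3: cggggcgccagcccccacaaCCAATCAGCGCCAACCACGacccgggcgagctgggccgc
Syvn1: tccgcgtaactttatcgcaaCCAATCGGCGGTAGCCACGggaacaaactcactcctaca
The stretch of Hsp90b1 (chr10:86705513-86705676, minus strand) holds 2 elements, the first at -212 to -194 and the other on the opposite strand.
Hsp90b1: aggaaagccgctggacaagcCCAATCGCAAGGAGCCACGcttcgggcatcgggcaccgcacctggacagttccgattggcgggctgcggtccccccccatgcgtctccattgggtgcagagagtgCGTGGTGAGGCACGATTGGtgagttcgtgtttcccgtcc

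The exact element stood in 39 of 32851 promoter windows (0.119%), belonging to 37 genes, of which 26 had a value. Of these 26, 17 were above 0 (median 0.11), 11 had an unadjusted p under 0.05 on the positive side and 1 on the negative side, and 2 were called, Creld2 and Pdia6. Over the 15244 genes with a window and a value, 47.9% were above 0 and 1.23% had an unadjusted p under 0.05 on the positive side. The 11 are named here after their values were seen. They were Creld2, Pdia6, Hspa5, Dnajc3, Syvn1, Alg12, Calr, Hsp90b1, Canx, Ero1b and Derl3. Of these, 8 belong to the chaperone and isomerase lists, where 8 of 35 genes with a window hold the element.

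Alg12, a mannosyltransferase of glycan assembly, lies 327 bases from Creld2 and shares its element; it was at 0.53 (SE 0.17) per the authors' deposited table. Acacb, an acetyl-CoA carboxylase of the mitochondrial surface, was the negative one, at -1.0 (SE 0.35) by the authors' deposited table. The remaining 14 genes with the element, among them the near-identical Xlr3a, Xlr3b and Xlr3c, had an unadjusted p above 0.05. Calr4, a calreticulin gene outside the chaperone and isomerase lists, was also among them, at -0.01 (SE 0.33) per the authors' deposited table. A shorter element, ATTGGNCCACG, stood in 12 windows (0.0365%), and of 10 genes with a value 2 had an unadjusted p under 0.05, both positive. These were Herpud1, of the degradation machinery, at 0.36 (SE 0.16) and Dnajb11 at 0.43 (SE 0.13) per the authors' deposited table. The element of Dnajb11 lies 8 to 18 bases after the annotated start, at chr16:22857844-22857870 on the plus strand.
Dnajb11: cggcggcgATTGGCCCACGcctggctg

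**Figure D4:**
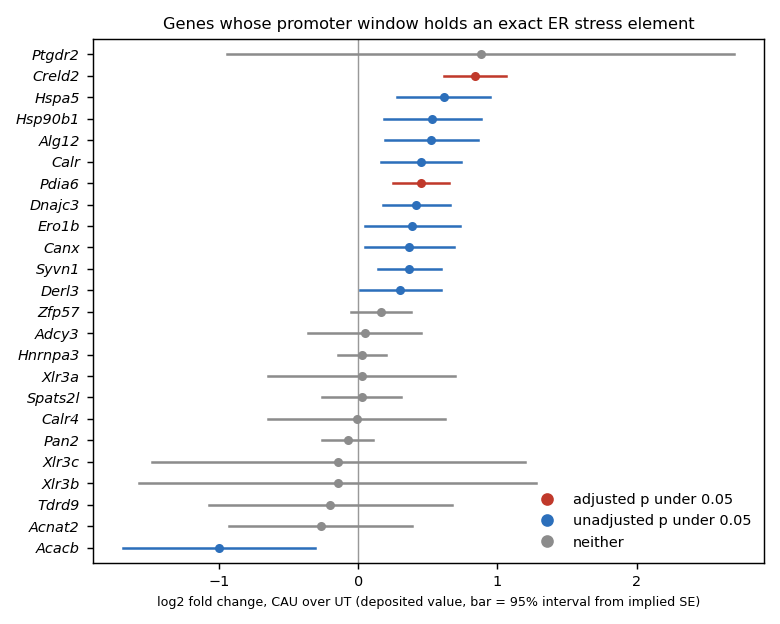
Log2 fold change of CAU over UT (horizontal axis) for the genes whose promoter window holds an exact ER stress element and whose implied SE is at most 1, with 95% intervals. Creld2 and Pdia6 (red) pass the adjusted p, a further 9 genes to the right of 0 and Acacb on the left have an unadjusted p under 0.05 (blue), and the rest (grey) do not.

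Called genes that lie close to or within another gene could share reads with it, since the sources used here do not give the strand setting of the counts. Creld2 (chromosome 15, 88819646 to 88826681) does not overlap Alg12. Pdia6 (chromosome 12, 17266589 to 17284785) overlaps Atp6v1c2 by 65 bases, and Nab2 (chromosome 10, 127660918 to 127666703) overlaps Stat6 by 70 bases. Atp6v1c2 was at 0.97 (SE 1.12) and Stat6 at 0.01 (SE 0.10) by the authors' deposited table. Kcnk2 (chromosome 1, 189207930 to 189402782) contains the non-coding gene A430027H14Rik, at -0.48 (SE 0.63) per the authors' deposited table. These positions are the whole genes in RefSeq on GRCm38.p6.

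P4ha2, the alpha subunit of collagen prolyl hydroxylase, had the largest change among the genes that rose, 2.23-fold by the authors' deposited table (1.16, SE 0.23, adjusted p = 0.00236). It was the 1 called gene among 26 genes of collagen hydroxylation and processing, against 0.0311% of all genes called higher. The list was written with this call known. Of the 26, 16 were above 0 (median 0.03). The other alpha subunits were at 0.39 for P4ha1 (-0.20 to 0.97) and -0.27 for P4ha3 (-1.04 to 0.51) per the authors' deposited table. Serpinh1, the collagen chaperone HSP47, was at 0.43 (-0.03 to 0.89), and the lysyl hydroxylases Plod1, Plod2 and Plod3 were at 0.28, 0.27 and 0.16 by the authors' deposited table. Lox, which cross-links collagen outside the cell, was at -0.57 (-1.15 to 0.01) per the authors' deposited table.

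No collagen chain, the substrate of these enzymes, was called. Of 44 chains, 20 were above 0 (median -0.07, range -1.26 to 1.78), and 1 had an unadjusted p under 0.05, Col28a1 at -1.26 (SE 0.40) by the authors' deposited table. The fibrillar chains Col1a1 and Col3a1 were at 0.07 (SE 0.22) and 0.19 (SE 0.20) per the authors' deposited table. Of 44 matrix proteases and inhibitors, 17 were above 0 (median -0.08). Timp2 was at -0.28 (SE 0.10) and Mmp9 at -0.88 (SE 0.42) by the authors' deposited table, and neither was called.

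Ubtd1, which encodes a ubiquitin-like domain protein, fell 5.45-fold per the authors' deposited table (-2.45 on the log2 scale, SE 0.28, adjusted p = 1.59e-14). It is the gene with the smallest p-value of the comparison and lies on chromosome 19 (41981763 to 42034650). Its paralog Ubtd2 was at -0.14 (SE 0.15) by the authors' deposited table. Ubtd1 is linked to the stability of YAP, the effector of the Hippo pathway. A list of 23 genes, Ubtd1 included, was examined for that pathway and its targets. Of these, 7 were above 0 (median -0.14), and no other member was called. Stk3, a Hippo kinase, was at 0.30 (SE 0.12) and Tead1, a partner of YAP, at 0.24 (SE 0.10) per the authors' deposited table. The YAP targets Ccn1 and Ccn2 were at -0.45 (SE 0.29) and 0.05 (SE 0.27) by the authors' deposited table.

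Cish, a feedback inhibitor of cytokine signalling that STAT5 induces, fell 2.49-fold per the authors' deposited table (-1.31, SE 0.23, adjusted p = 1.25e-04). Its relative Socs3, which STAT3 induces, was at -0.71 (-1.09 to -0.33, adjusted p = 0.201) by the authors' deposited table. The 6 others of the family had intervals that include 0, from Socs1 at -0.31 (-1.01 to 0.38) to Socs4 at 0.06 (-0.55 to 0.66) per the authors' deposited table. Socs2, another STAT5 target, was at -0.02 (-0.26 to 0.23) by the authors' deposited table.

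Cish and Socs3 are shown with the spaced palindrome that STAT factors read, searched on both strands as TTCNNNGAA. It stood in 8.3% of all windows and at least 2 copies in 0.457%. The 1311 genes with this palindrome and a value had a median of -0.01, as did all genes with a window. Of the 1311, 29 had an unadjusted p under 0.05 on the negative side and 14 on the positive side. Over all 19302 genes these were 437 (2.26%) and 231 (1.2%). The Cish window holds 2 copies that begin at the annotated start (chr9:107296654-107296683, plus strand), and that of Socs3 holds 1 copy at -154 to -146 (chr11:117969502-117969530, minus strand).
Cish: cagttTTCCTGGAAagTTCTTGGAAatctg
Socs3: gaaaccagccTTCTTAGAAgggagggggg

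Genes of the same signalling axis were mostly below 0. Of 29 receptors, kinases and targets of the STAT5 axis, 9 were above 0 (median -0.16), none was called, and 6 had an unadjusted p under 0.05, all negative, against 2.26% of all genes. Jak3, a kinase of cytokine receptors on blood cells, was at -0.42 (SE 0.13) per the authors' deposited table. Csf2rb, the shared beta chain of the GM-CSF receptor, was at -1.0 (SE 0.30) and its near-identical neighbour Csf2rb2 at -0.95 (SE 0.30) by the authors' deposited table, and reads of these genes may be divided between them. Ghr, the growth hormone receptor, was at -0.83 (SE 0.32) and Stat3 at -0.37 (SE 0.13) per the authors' deposited table. Prlr, the prolactin receptor of luteal cells, was at 0.24 with a wide interval (-0.98 to 1.46) by the authors' deposited table.

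Nab2, a corepressor of the EGR transcription factors, fell 1.38-fold per the authors' deposited table (-0.46, SE 0.10, adjusted p = 0.00726). Of 32 EGR, NAB and immediate early genes, which are switched on within minutes of growth factor signalling or tissue handling, 7 were above 0 (median -0.16). Of the 32, 6 had an unadjusted p under 0.05, all negative, against 2.26% of all genes. Nab2 was the 1 called, against 0.0207% of all genes called lower, and the list was written with this call known. Dusp4 has been given above, and Nr4a3, an orphan nuclear receptor, was at -1.76 (SE 0.44) by the authors' deposited table. Jun was at -0.43 (SE 0.15) per the authors' deposited table. Egr1, the main partner of Nab2, was at 0.20 (-0.23 to 0.62) and Nab1, its paralog, at -0.08 (SE 0.09) by the authors' deposited table.

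Kcnk2, a stretch-sensitive leak potassium channel, fell 1.84-fold per the authors' deposited table (-0.88, SE 0.20, adjusted p = 0.0277). Of 14 channels of the Kcnk family, 4 were above 0 (median -0.29), and 8 had an implied SE above 1. Over the 6 others the median was -0.14. Kcnk3, an acid-sensitive member, was at -0.66 (SE 0.31) by the authors' deposited table and was not called. The largest other differences with an SE of at most 0.5 and an unadjusted p under 0.01 included Zbtb16, a transcriptional repressor, at 1.49 (SE 0.41) and Pde10a, a phosphodiesterase, at 1.42 (SE 0.43) per the authors' deposited table. On the negative side they included Chst1, a sulfotransferase, at -1.51 (SE 0.49) and Klb, a co-receptor of endocrine FGFs, at -1.37 (SE 0.49) by the authors' deposited table. None of these 4 passed the adjusted p.

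Genes of granulosa cells, the follicle cells that make oestradiol, were mostly above 0, and none was called. Of 20 genes, 16 were above 0 (median 0.27) and 4 had an unadjusted p under 0.05, all positive, against 1.2% of all genes. Inhbb, an inhibin and activin subunit, was at 0.54 (SE 0.21) and Nr5a2, a nuclear receptor needed for ovulation, at 0.48 (SE 0.19) per the authors' deposited table. Cyp19a1, the aromatase gene, was at 1.10 with an interval of 0.03 to 2.16 by the authors' deposited table. Fshr was at 0.39 (-0.25 to 1.04) and Amh at 0.23 (-0.13 to 0.60) per the authors' deposited table.

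In the stroma, 12 of 16 theca and stroma genes were above 0 (median 0.09). Hhip and Ptch1, targets of the hedgehog signal that granulosa cells send to theca, were at 0.68 (SE 0.23) and 0.43 (SE 0.19) by the authors' deposited table. Steroid synthesis genes (13 of 19 above 0, median 0.23) and luteal genes (10 of 17, median 0.21) were imprecise, with median SEs of 0.68 and 0.63. Among the 14 luteal genes with an SE of at most 1 the median was 0.11. Por, the reductase that feeds electrons to steroid-making cytochromes, was at -0.53 (SE 0.23) per the authors' deposited table. Oocyte genes had 16 of 27 above 0 with a median of 0.02. Gdf9, the oocyte growth factor, was at 0.10 (-0.23 to 0.43) and Sohlh1, a factor of early oocytes, at -0.99 (SE 0.41) by the authors' deposited table.

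All 38 replication genes (median 0.24) and all 32 mitosis genes (median 0.16) were above 0. Their median SEs, 0.19 and 0.18, lie where 56.0% of all genes were above 0. Of the 70, 11 had an unadjusted p under 0.05, against 1.2% of all genes on the positive side, and none was called. Such genes can vary together between libraries, so these are not counts of independent results. Mcm3, of the replicative helicase, was at 0.50 (SE 0.21) and Pold1, a catalytic subunit of DNA polymerase, at 0.38 (SE 0.16) per the authors' deposited table. Nuf2, of the kinetochore, and Top2a were at 0.31 (SE 0.15) and 0.33 (SE 0.17) by the authors' deposited table. DNA repair genes had 25 of 32 above 0 (median 0.10). Granulosa cells are the main dividing cells of follicles, and in bulk tissue a different number of cells of a type and a different amount of RNA per cell cannot be told apart.

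Targets of p53, which DNA damage raises, had 16 of 27 above 0 with a median of 0.02, and 1 with an unadjusted p under 0.05. This was Eda2r at 0.58 (SE 0.24) per the authors' deposited table. Cdkn1a, which encodes the cell cycle brake p21, was at 0.59 (-0.07 to 1.25) by the authors' deposited table. Of 23 CDK inhibitors and senescence genes, 10 were above 0 (median -0.08, and -0.05 over the 20 with an SE of at most 1), and none was called. Il1b, an inflammatory cytokine, was the lowest by p-value of that list, at -1.94 (SE 0.51, adjusted p = 0.131) per the authors' deposited table.

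Immune genes were mostly below 0, without a called member in any immune list. Several of these lists hold imprecise genes, whose background of genes above 0 is near 39.0% rather than 47.8%. Of 28 macrophage markers, 27 were below 0 (median -0.43), and 10 had an unadjusted p under 0.05, all negative, against 2.26% of all genes. Cx3cr1, a chemokine receptor of tissue macrophages, was at -1.11 (-1.66 to -0.56, adjusted p = 0.109), and Csf1r, the receptor for the macrophage growth factor, at -0.67 (-1.09 to -0.26) by the authors' deposited table. Adgre1, a surface antigen of mature macrophages, was at -0.86 (-1.60 to -0.12) per the authors' deposited table. Of 22 complement genes, 17 were below 0 (median -0.34), and 8 had an unadjusted p under 0.05, all negative, against the same 2.26%. Among the 8 was the macrophage product C1qa, at -0.56 (SE 0.20) by the authors' deposited table. That gene and its partners count in both lists.

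All 12 MHC class II genes were below 0 (median -0.58, median SE 0.41), and none had an unadjusted p under 0.05. H2-Aa was at -0.59 (-1.40 to 0.22) and the regulator Ciita at -0.62 (-1.28 to 0.04) per the authors' deposited table. Of 37 chemokine ligands, 31 were below 0 (median -0.31). Cxcl12, which holds white blood cells in tissue, was at -0.53 (SE 0.16) by the authors' deposited table. Mast cell genes had 5 of 8 below 0 with a median of -1.35, and Cma1, a mast cell chymase, was at -1.56 (SE 0.57) per the authors' deposited table. Type I interferon genes (21 of 30 below 0, median -0.09) and T and NK cell genes (15 of 19, median -0.13, and -0.09 over the 13 with an SE of at most 1) lay nearer 0. Neutrophil genes were split, 8 on each side, with 10 of 16 at an SE above 1, and the median of the 6 others was -0.79.

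Genes of other cell types and of tissue that can come along with an ovary had values of the same sign in several lists. Of 14 adipocyte genes, 13 were below 0, with a median of -1.41 and a median SE of 1.04, and 3 had an unadjusted p under 0.05. Over the 6 with an SE of at most 1 the median was -0.89. Plin1, which coats lipid droplets, was at -0.90 (SE 0.36) by the authors' deposited table. Endothelial genes had 14 of 15 below 0 (median -0.24), with Vwf at -0.82 (SE 0.21) and Kdr at -0.38 (SE 0.13) per the authors' deposited table. Surface epithelium genes had 10 of 13 below 0 (median -0.35, and -0.63 over the 9 with an SE of at most 1), with Lrrn4 at -1.23 (SE 0.44) and Upk3b at -0.86 (SE 0.32) by the authors' deposited table. All 10 smooth muscle genes were above 0 by little (median 0.09). The part of such tissue in the values of the immune, lipid and stromal genes was not tested.

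SREBP factors drive the synthesis of fatty acids and sterols. The 5 genes of the SREBP list of 33 with an unadjusted p under 0.05 were all negative and all serve fatty acid synthesis. Elovl6, an elongase, was at -0.59 (SE 0.19) and Fasn, the fatty acid synthase, at -1.67 (SE 0.69) per the authors' deposited table. Scd1, a desaturase that fat tissue also makes, was at -1.99 (SE 0.94) by the authors' deposited table. Over the whole list 20 of 33 genes were above 0 (median 0.04), and Srebf2, the factor that drives sterol genes, was at 0.15 (SE 0.20) per the authors' deposited table. Among 51 antioxidant genes (21 above 0, median -0.02), Gpx3, the secreted glutathione peroxidase, was at -0.65 (SE 0.19) by the authors' deposited table and was not called.

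No gene of the growth factor and hypoxia lists given here was called. The hypoxia list holds P4ha1 (0.39, its highest value) but not the called P4ha2 (1.16) by the authors' deposited table. Of 19 genes of IGF signalling and its binding proteins, 7 were above 0 (median -0.13) and 3 had an unadjusted p under 0.05, 1 positive and 2 negative. Stc1, which encodes the secreted glycoprotein stanniocalcin, was at 0.74 (SE 0.25) and Igfbp5, a binding protein of granulosa cells and stroma, at -0.25 (SE 0.12) per the authors' deposited table. Of 32 genes of BMP and TGF-beta signalling, 13 were above 0 (median -0.05) and 4 had an unadjusted p under 0.05, 3 positive and 1 negative. Bmpr1b, a receptor for the growth factors of the oocyte, was at 0.34 (SE 0.12) and Tgfb1 at -0.39 (SE 0.18) by the authors' deposited table. Of 32 glycolysis genes and targets of the hypoxia factor HIF, 15 were above 0 (median -0.01). The 2 with an unadjusted p under 0.05, Egln3 and Pdk1, were at -1.62 (SE 0.76) and -0.59 (SE 0.29) per the authors' deposited table. Mitochondrial genes stayed close to 0, with medians of 0.04 over 78 ribosomal proteins and 0.03 over 95 genes of the respiratory chain, none at an unadjusted p under 0.05.

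Of the 60 lists, 27 had a median above 0 and 33 below, and 14 had no member with an unadjusted p under 0.05. In 5 of the 56 lists with at least 10 measured genes all members lay on 1 side. These were the translocon, DNA replication, mitosis and smooth muscle lists on the positive side and the MHC class II list on the negative side. The lists held 1552 different genes of the 19302 with a value. All 10 called genes were in a list, which is no result, since the lists were written with the calls known.

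**Figure D5:**
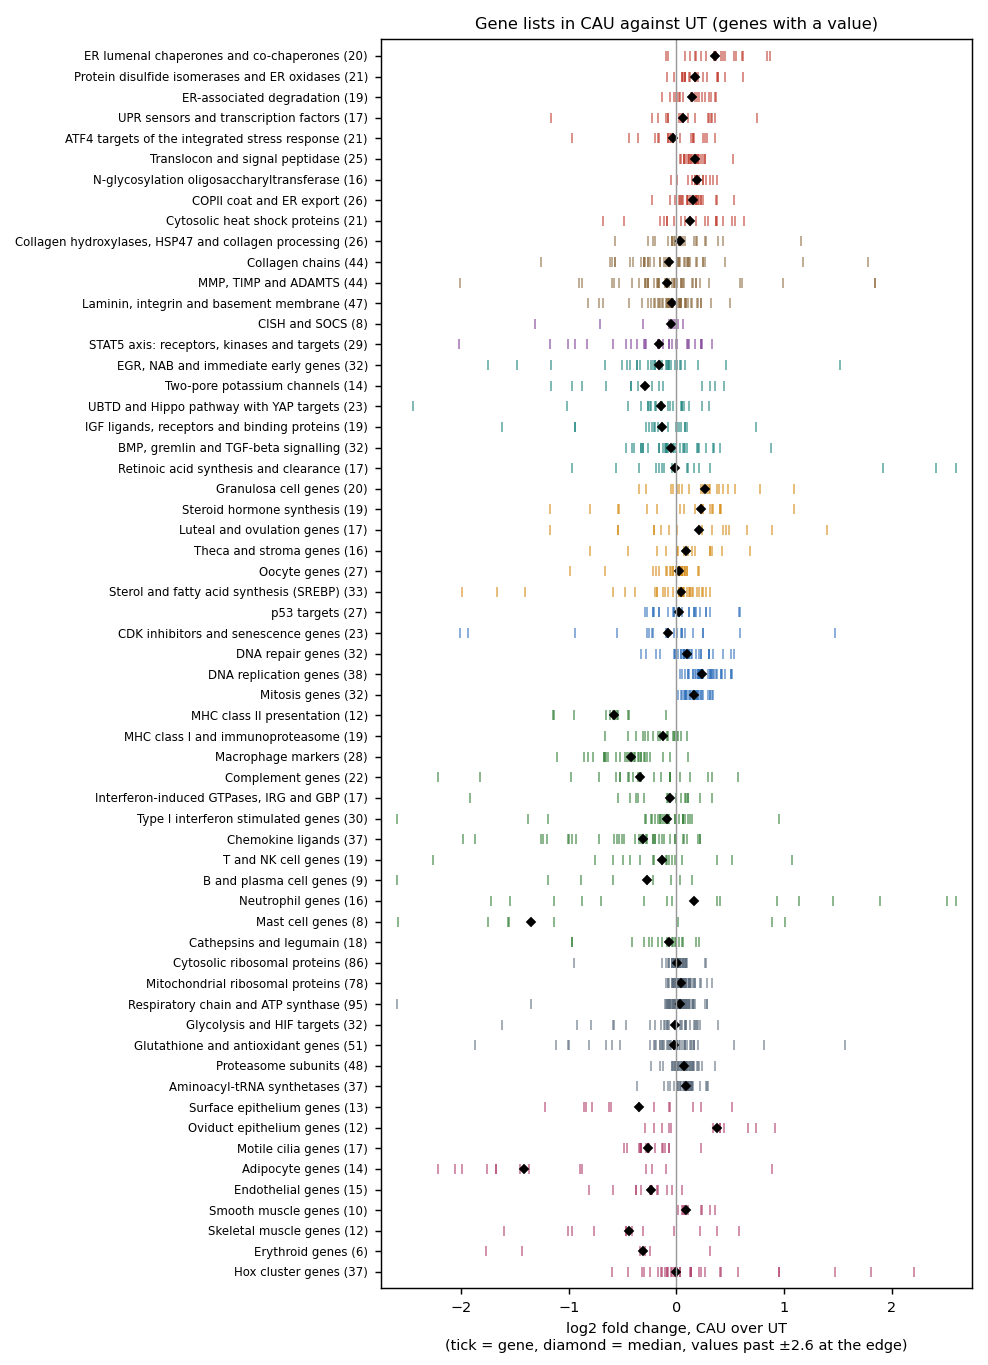
Log2 fold change of CAU over UT (horizontal axis) for every gene with a value in the 60 lists (vertical axis, number of genes in brackets), coloured by theme, with the median of each list as a diamond. The ER lists at the top have medians from -0.03 to 0.36, and the macrophage, MHC class II, mast cell and adipocyte lists have medians from -0.43 to -1.41.

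Grouping by symbol alone gave a view that needs no list. Among genes with an implied SE of at most 1, 190 symbol stems had at least 10 members (4916 genes). A stem takes in symbols that begin with it and a digit, whatever the gene does. The stem with the highest median z was Mcm, with 10 of 10 genes above 0 and a median of 0.39. Of the 10, 9 belong to the MCM family of the replication helicase. Next came Alg, the enzymes of glycan assembly in the ER, with 11 of 12 above 0 and a median of 0.13. Sec, which takes in coat and translocon genes, had 21 of 25 above 0 (median 0.11). The lowest was Cd, which takes in cell surface antigens of blood cells, with 14 of 70 above 0 and a median of -0.22. Next lowest was Camk, with 2 of 10 above 0 (median -0.14). Then came Dusp, which takes in phosphatases of MAP kinases, with 5 of 22 above 0 (median -0.20). Tlr, the Toll-like receptors, had 2 of 12 above 0 (median -0.30). Median SEs of Cd and Tlr (0.36 and 0.40) lie where 39.0% of all genes were above 0. For Dusp (0.298) that share was 49.2%, and for Mcm, Alg and Sec (0.19, 0.17 and 0.15) it was 56.0%.

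The called genes are given here beside their values in the other comparisons of the study, which share the UT or the CAU libraries with this one and so are not independent of it. Creld2 was at 0.84 in CAU against UT, 0.44 (SE 0.14) in CTX against UT and 0.39 (SE 0.12) in CAU against CTX per the authors' deposited table. Sdf2l1 was at 0.87, 0.49 (SE 0.21) and 0.37 (SE 0.17) in the same order by the authors' deposited table. For Pdia4 the authors' deposited table lists 0.61, 0.49 (SE 0.13, adjusted p = 0.0146) and 0.12 (SE 0.11), so this gene rose in CTX against UT as well. P4ha2 was at 1.16, 0.97 (SE 0.32) and 0.18 (SE 0.27) per the authors' deposited table.

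Among the genes that fell, Cish was at -1.31 in CAU against UT, -1.01 (SE 0.23, adjusted p = 0.00215) in CTX against UT and -0.31 (SE 0.19) in CAU against CTX by the authors' deposited table. Cish thus passed the threshold against UT in both treated groups. Kcnk2 was at -0.88, -0.35 (SE 0.17) and -0.54 (SE 0.13, adjusted p = 0.0169) in the same order per the authors' deposited table, and so passed in both comparisons of CAU. Ubtd1 was at -2.45, -1.44 (SE 0.71) and -1.01 (SE 0.75) by the authors' deposited table, with an SE in both comparisons of CTX larger than the 0.28 of CAU against UT. Nab2 was at -0.46, -0.20 (SE 0.10) and -0.27 (SE 0.10) per the authors' deposited table. Manf and Pdia6, which rose, were at 0.39 (SE 0.13) and 0.26 (SE 0.11) in CTX against UT by the authors' deposited table, short of the threshold.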

How the data were processed

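RNA-seq was done on ovarian tissue from 3 untreated (UT), 3 cyclophosphamide (CTX) and 3 caulerpin (CAU) libraries, prepared with a SMARTer mRNA kit per the labels' protocols. Tools listed by the submitters' processing notes, without their roles, are DESeq2 1.44.0, RSEM 1.3.1, Bowtie2 and HISAT2, with the mouse build GRCm38.p6. The sources used here do not give strand setting, filters or covariates.

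Per the file headers, the deposited table holds a log2 fold change and a DESeq2 p-value and q-value (adjusted p here) for each pair of groups, all computed by the authors. Values were blank for 215 genes. The q-values were within 7.74e-05 of a recomputed Benjamini-Hochberg adjustment. With no counts, no test of counts and no depth could be had. The implied SE is the log2 fold change over the z of its 2-sided p-value, as in a Wald test without shrinkage. A gene with an adjusted p under 0.05 was called.

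Families were 60 lists described by counts and medians, with no list test. Members and lists were chosen with earlier results of these data known. Named genes were the called genes, the 20 with the smallest p-values, the 2 smallest in each list, the 5 highest and 5 lowest log2 fold changes with an SE of at most 0.5 and an unadjusted p under 0.01, 13 fixed genes, and the members of the chaperone, isomerase, SOCS and collagen hydroxylase lists. Genes of other lists, symbol groups and promoter groups named beyond this were chosen after their values were seen. Of 19517 gene IDs, 19459 were found in RefSeq. Scripts (Python 3.11.15, numpy 2.4.6, pandas 2.3.3, scipy 1.17.1, matplotlib 3.10.9) were tested on simulated data. Alternatives were other thresholds, z scaling, centring, a limit on the SE and leaving out predicted genes. Some genes that the rule takes in are not reported here.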

Additional observations from a re-analysis of the deposited data

How the results depend on the processing

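The 10 calls stayed when the median of all genes was set to 0, when genes with an implied SE above 1 were left out and when predicted genes were left out. At an adjusted p under 0.10 there were 11 (Dusp4 was added), and at 0.01 there were 7. Asking for at least 2-fold left 3 calls, 1 higher and 2 lower. Scaling z to a spread of 1 gave 255 calls, 85 higher and 170 lower, and scaling it within 10 bins of implied SE, an alternative chosen after seeing the data, gave 185, 54 higher and 131 lower. All 10 deposited calls were among the calls of both scalings. The spread of z was 0.810 among genes with an implied SE of at most 1. The cause of the low spread was not tested, so the scaled counts are no better founded than the deposited one.

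The number of lists with a median above 0 was 28 after centring on that median and 25 with an SE limit of 1. No paired analysis was possible because the table holds no values per library, and for the same reason leaving out single replicates was not run. Without levels or depth, a low-abundance gene cannot be told from a variable one, and wide intervals limit lists such as those of adipocyte, oviduct and ciliary genes. With an SE limit of 1, the median of the neutrophil list went from 0.16 to -0.79 (6 genes left) and that of the oviduct list from 0.37 to -0.05 (3 genes left).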

Other observations

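The genes in these paragraphs were chosen after their values were seen, and no test was made of them as groups. Genes of the circadian clock were mostly below 0, with 16 of 19 negative and a median of -0.30. Nr1d1, a repressor of the clock, was at -0.74 (SE 0.22) and Dbp, a clock output factor, at -0.74 (SE 0.27) per the authors' deposited table. Arntl, the activator that Nr1d1 represses, was at 0.47 (SE 0.37) by the authors' deposited table. The clock genes Npas2 and Clock were at 0.62 (SE 0.44) and -0.05 (SE 0.15) per the authors' deposited table. None was called, and the hour at which ovaries were taken is not given in the sources used here. In CTX against UT, which shares the UT libraries, Nr1d1 was at -0.78 (SE 0.22, adjusted p = 0.0409), and in CAU against CTX at 0.03 (SE 0.18) per the authors' deposited table.

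Of 19 subunits, inhibitors and targets of NF-kappaB, the main transcription factor of inflammation, 16 were below 0 (median -0.13). Bcl3, a nuclear cofactor, was at -0.83 (SE 0.22), Relb, a subunit, at -0.50 (SE 0.14) and Icam1, an adhesion target, at -0.68 (SE 0.19) by the authors' deposited table. Nfkb1 and Nfkbia were at -0.03 (SE 0.11) and -0.10 (SE 0.22) per the authors' deposited table. Lipid storage and fatty acid synthesis genes had 20 of 21 below 0 (median -1.12). Of the 21, 11 had an unadjusted p under 0.05, all negative, against 2.26% of all genes. Members such as Plin1, Scd1 and Fasn also count in the adipocyte or SREBP lists above. Dgat1, the last enzyme of triglyceride synthesis, was at -1.20 (SE 0.43) by the authors' deposited table. In CTX against UT Dgat1 was at -1.05 (SE 0.43), and in CAU against CTX at -0.15 (SE 0.25) per the authors' deposited table.

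Clustered gene copies gave large and imprecise values. Of 7 Oas1 genes, Oas1d was at -9.00 (SE 2.36), Oas1h at -8.50 (SE 3.91) and Oas1a at -3.35 (SE 1.01), while Oas1c and Oas1e were at -0.23 (SE 0.16) and 0.01 (SE 0.16) per the authors' deposited table. In CAU against CTX, Oas1d fell, at -9.09 (SE 2.24, adjusted p = 0.0171), and in CTX against UT it was at 0.09 (SE 1.96) by the authors' deposited table. Of 17 Mup genes, which encode near-identical urinary proteins, 15 were below 0 with a median of -3.58 and a median SE of 2.84. How reads were divided between such copies, and whether they were read at all in some libraries, is not given in the sources used here.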
